A study of Mus musculus with 3 samples.

Results

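Peaks of NR2F2 binding that lay more than 1 kb and at most 10 kb from the nearest transcription start site (TSS) were examined in the mouse fetal testis. The distance ran from the nearer edge of each 300 bp peak to the closest start, on either side, among curated RefSeq transcripts of the GRCm38 assembly (mm10). The rule selected 915 of 10069 peaks, or 9.09% of the 10064 that lay on placed chromosomes, and used no read count. Of these, 405 lay upstream of the nearest gene, 403 inside it and 107 past its 3′ end. Chromatin immunoprecipitation and sequencing (ChIP-seq) was performed on whole testes of CD-1 embryos at E14.5 (an embryonic stage), with 2 NR2F2 ChIP libraries and 1 input library of chromatin that was not immunoprecipitated. Each ChIP library came from 30 pooled testes and was made with an NR2F2 antibody from Active Motif, and no genotype or treatment was varied. The comparison used here is therefore ChIP against input, with no sample from testes that lack NR2F2.

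NR2F2, also named COUP-TFII, is an orphan nuclear receptor of mesenchymal cells, and in the fetal testis it is found in interstitial cells, including progenitors of Leydig cells. COUP-TF proteins bind DNA as dimers through zinc fingers that recognise copies of a short half-site, most often arranged as direct repeats. Sequence 1 to 10 kb from a start is proximal regulatory territory, in which enhancers, alternative promoters and the first introns of genes are common.

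The sequences of peaks with high ChIP counts that held an extended half-site, AGAGGTCA or AGGGGTCA on either strand, are shown as examples of that motif, which most of the peaks lacked. In the sequences below, taken from the GRCm38 genome on its plus strand, capitals mark half-sites (AGGTCA or GGGTCA, or TGACCT and TGACCC where the match is on the minus strand), with their 2 further bases where the extended form is present. The upstream peaks lay at chr2:30718732-30719031 (2179 bp from the annotated start of the microRNA gene Mir3089), chr2:119319519-119319818 (5966 bp from Dll4, a Notch ligand of endothelial cells) and chr9:43210127-43210426 (4372 bp from Pou2f3, a POU-domain transcription factor).
Mir3089: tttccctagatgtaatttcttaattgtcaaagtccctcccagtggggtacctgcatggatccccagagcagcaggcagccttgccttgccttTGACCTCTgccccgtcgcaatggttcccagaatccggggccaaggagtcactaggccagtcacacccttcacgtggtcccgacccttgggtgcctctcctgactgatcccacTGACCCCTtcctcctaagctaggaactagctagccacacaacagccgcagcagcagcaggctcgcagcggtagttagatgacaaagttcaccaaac
Dll4: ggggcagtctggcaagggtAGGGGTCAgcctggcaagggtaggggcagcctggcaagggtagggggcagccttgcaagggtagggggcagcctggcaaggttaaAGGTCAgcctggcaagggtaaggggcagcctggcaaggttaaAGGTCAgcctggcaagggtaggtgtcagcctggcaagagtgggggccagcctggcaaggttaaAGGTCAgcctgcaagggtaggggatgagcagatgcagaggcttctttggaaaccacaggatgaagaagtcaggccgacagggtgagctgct
Pou2f3: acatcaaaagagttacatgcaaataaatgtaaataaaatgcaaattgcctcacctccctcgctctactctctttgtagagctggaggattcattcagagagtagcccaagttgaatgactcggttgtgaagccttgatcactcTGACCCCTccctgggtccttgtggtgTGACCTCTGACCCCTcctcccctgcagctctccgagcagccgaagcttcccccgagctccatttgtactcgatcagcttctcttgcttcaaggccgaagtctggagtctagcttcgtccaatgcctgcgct

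The Mir3089 peak held 2 extended sites and the Pou2f3 peak 3, which included a direct repeat with 1 base between the half-sites (DR1). In the Dll4 peak a short unit recurs along the sequence: 65.2% of its bases were the same as the base 21 bp further on, and it held 4 half-sites. A pair of peaks inside genes that held the extended site is shown next, which does not include the one with the highest ChIP counts. They lay at chr19:3923571-3923870 (midpoint in intron 2 of Aldh3b1, an aldehyde dehydrogenase, 5908 bp from its TSS) and chr4:154634951-154635250 (non-coding exon 1 of the long non-coding RNA gene 5930403L14Rik, 1117 bp, where a transcript of Prdm16 also runs).
Aldh3b1: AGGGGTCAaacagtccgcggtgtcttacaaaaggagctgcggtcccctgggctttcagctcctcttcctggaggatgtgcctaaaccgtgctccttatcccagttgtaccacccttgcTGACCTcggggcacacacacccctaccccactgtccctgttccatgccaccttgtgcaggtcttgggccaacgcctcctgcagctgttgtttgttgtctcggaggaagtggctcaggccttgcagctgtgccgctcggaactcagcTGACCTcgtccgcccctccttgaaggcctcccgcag
5930403L14Rik: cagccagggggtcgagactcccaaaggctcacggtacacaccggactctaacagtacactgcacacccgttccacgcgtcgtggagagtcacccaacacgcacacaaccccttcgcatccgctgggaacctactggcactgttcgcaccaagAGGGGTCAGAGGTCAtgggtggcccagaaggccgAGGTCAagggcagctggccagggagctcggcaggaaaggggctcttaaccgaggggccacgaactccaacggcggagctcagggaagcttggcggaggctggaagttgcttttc

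The 5930403L14Rik peak held a DR1, of 2 extended sites on the plus strand, and 1 half-site more. The Aldh3b1 peak held 3 half-sites with no DR1 and 3 copies of the E-box CAGCTG. The upstream peak at Nr5a1, which encodes the steroidogenic regulator SF-1, is shown because of the gene's role in Leydig cells. It lay at chr2:38719416-38719715, 4874 bp from the TSS, and held 1 half-site on the minus strand.
Nr5a1: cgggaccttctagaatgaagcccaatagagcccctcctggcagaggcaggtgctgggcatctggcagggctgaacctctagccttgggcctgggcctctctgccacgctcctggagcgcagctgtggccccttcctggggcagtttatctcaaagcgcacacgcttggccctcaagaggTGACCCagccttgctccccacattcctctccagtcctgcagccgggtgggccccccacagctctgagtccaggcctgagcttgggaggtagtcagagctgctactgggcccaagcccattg

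The peaks had 880 nearest genes, which is 3.36% of the 26180 annotated genes. Of these genes, 847 had 1 such peak, 31 had 2, and Nedd4 (a ubiquitin ligase) and Plxdc1 had 3. The nearest gene was protein-coding for 723 peaks, a long non-coding RNA gene for 127 and a microRNA gene for 53, of which 31 were upstream peaks. The start of a microRNA gene was that of its RefSeq record, and whether transcription begins there was not checked. Of the 403 peaks inside genes, 311 (77.2%) had their midpoint in an intron, 72 (17.9%) in a coding exon, 11 in a non-coding exon, 7 in a 3′ UTR and 2 in a 5′ UTR. Of the 405 upstream peaks, 66 (16.3%) overlapped a transcript of another gene, so upstream of the nearest gene did not always mean intergenic.

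The peaks were most numerous close to the inner limit, with 185 between 1 and 2 kb and 77 to 104 in each further kilobase. Inside genes, 114 peaks lay between 1 and 2 kb, against 61 upstream. Peaks were called CpG-rich when GC content was over 50% and the ratio of observed to expected CpG was over 0.6. CpG-rich peaks made up 49.7% of those between 1 and 2 kb and 21.1% of those between 2 and 10 kb, as the plot by distance shows. For comparison, the share was 82.7% within 1 kb of a TSS and 7.56% beyond 10 kb. A second annotation, GENCODE M21, placed a start within 1 kb of 197 of the 915 peaks (21.5%) and on 49 of them, so part of the selection was promoter-proximal by another transcript catalogue.

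**Figure D1:**
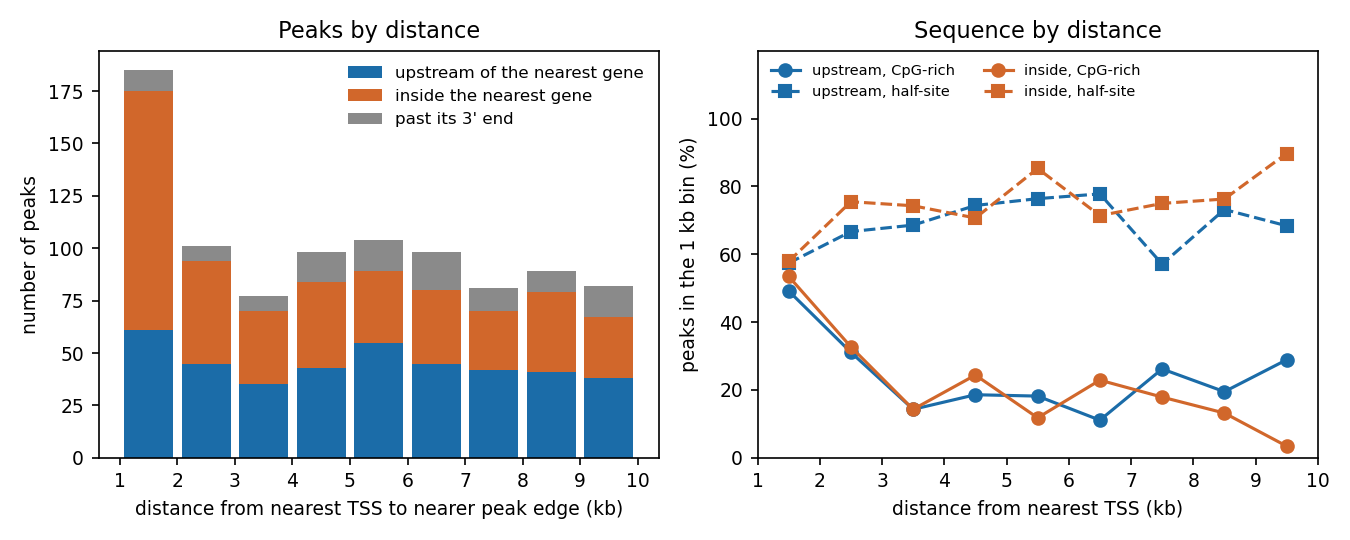
Left, the number of peaks in each 1 kb bin of distance (kb) from the nearest TSS, stacked by position relative to the nearest gene. Right, the share of upstream and of inside peaks in each bin that were CpG-rich (circles, solid lines) or held a half-site (squares, dashed lines): CpG-rich shares fell from 49.2% and 53.5% in the first bin, where half-site shares were 57.4% and 57.9%.

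At the limits of the selection, the counts on one side overlapped those on the other. Just within 1 kb lay peaks at Gnaq (a G-protein subunit, 997 bp), with 3 input counts and 23 and 28 ChIP counts, and at Slc6a4 (the serotonin transporter, 999 bp), with 8 and then 36 and 25. Just beyond it lay peaks at Crh (corticotropin-releasing hormone, 1002 bp), with 5 input counts and 20 in each ChIP library, and at Khdc3 (1007 bp), with 8 and then 56 and 51. Just within 10 kb lay peaks at A630077J23Rik (9990 bp), with 8 input counts and 19 and 30 ChIP counts, and at Mpst (10000 bp), with 8 and then 75 and 52. Just beyond lay peaks at Gm19723 (10003 bp), with 3 input counts and 26 and 25 ChIP counts, and at Cbln3 (10017 bp), with 8 and then 45 and 36.

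The first comparison asked how strong the NR2F2 signal was at these peaks and whether it differed between peaks upstream of a gene and inside it. The 3 libraries held 73251 input counts and 426784 and 364261 ChIP counts over all peaks. At the 915 peaks the input count was 1 at the lowest, 7 at the median and 29 at the highest. ChIP replicate 1 ranged from 8 through a median of 38 to 195, and ChIP replicate 2 from 7 through 32 to 228. Both ChIP counts exceeded the input at 910 of the 915 peaks, but the peaks had been called on these ChIP reads, so this excess describes the selection of peaks. In whole testis, a higher count from more NR2F2-bound cells cannot be told apart from one from stronger binding in each cell.

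The median ratio of ChIP to input counts was 5.00 in replicate 1 and 4.33 in replicate 2, 4.67 ± 0.471 (SD, n = 2). Ratios had 0.5 added to each count and are known only up to the unknown depths of the libraries, so values are comparable between peaks and not as absolute enrichments. Upstream peaks had a ratio of 4.72 ± 0.546 and peaks inside genes 4.65 ± 0.492 (SD, n = 2 for each). On the log2 scale, upstream exceeded inside by 0.03 in replicate 1 and 0.01 in replicate 2, 0.02 ± 0.014 (SD, n = 2). This difference between classes was not tested. A sign-flip test over 2 ChIP libraries cannot give a p under 0.5, and peaks are not replicates. The 107 peaks past a 3′ end had a ratio of 4.46 ± 0.429.

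The selected peaks lay between the promoter-proximal and the distal peaks in signal. Their log2 ratio was lower than that of the 5840 peaks within 1 kb of a TSS by 0.14 in replicate 1 and 0.08 in replicate 2 (difference −0.11 ± 0.045, SD, n = 2). It was higher than that of the 3309 peaks beyond 10 kb by 0.16 and 0.08 (difference 0.12 ± 0.061, SD, n = 2). Both differences had the same sign in each replicate, and neither was tested. The plot of ratios by position shows the medians beside the spread of single peaks.

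**Figure D2:**
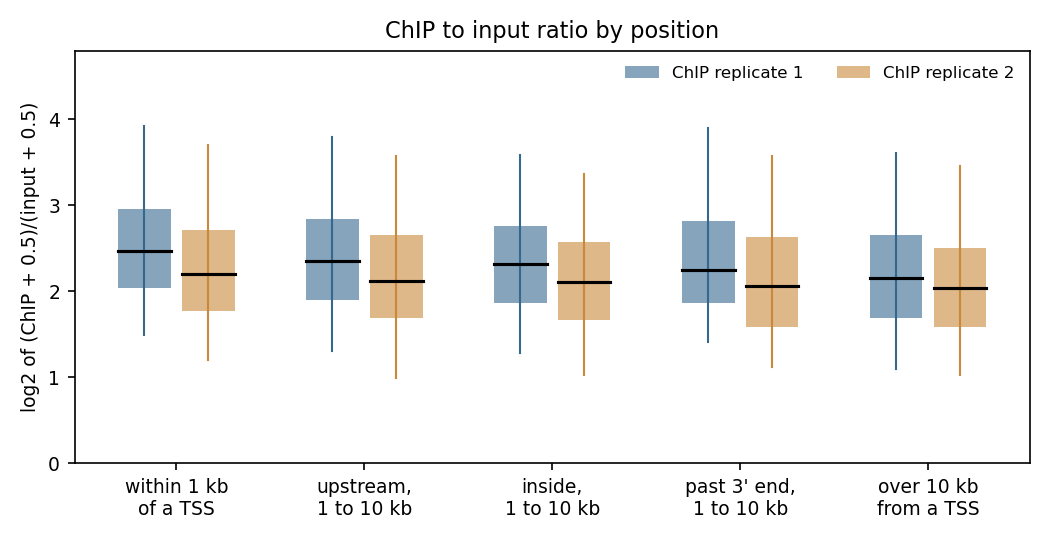
The log2 ratio of ChIP to input counts (0.5 added to each) by position, for each ChIP replicate. Black lines are medians, boxes run from the lower to the upper quartile of peaks and thin lines from the 5th to the 95th percentile; upstream and inside medians were 2.35 and 2.32 in replicate 1 and 2.12 and 2.11 in replicate 2.

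Within genes, the 72 peaks in coding exons had lower ratios than the 311 in introns, by 0.11 in replicate 1 and 0.26 in replicate 2 (difference −0.18 ± 0.11 on the log2 scale, SD, n = 2). The lower ratio came with a higher input. The input median was 10 counts in coding exons and 7 in introns, while the ChIP medians were 41.5 and 38 in coding exons and 37 and 33 in introns. Median GC content was 64.8% in the coding exons and 55.7% in the introns, and its part in the difference was not tested.

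The ChIP replicates ranked the 915 peaks alike, with a Spearman coefficient of 0.836 across peaks, which share the libraries and are not independent replicates. The input also followed them, with a coefficient of 0.464 against replicate 1 and 0.408 against replicate 2. After scaling by the totals at peaks, 32 peaks (3.50%) differed over 2-fold between the replicates, 17 of them upstream and 12 inside. The widest gap was at a peak 8496 bp upstream of 4930517M08Rik (chr17:4626185-4626484), named here after its values were seen, with 139 counts in replicate 1, 19 in replicate 2 and 29 in the input. In its sequence 88.0% of bases were soft-masked as repeat, and 95.2% of bases recurred 50 bp further on.

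The second question was which single peaks stood above or below the typical peak. Counts of all 10069 peaks were fitted with the quasi-likelihood test of edgeR, scaled so that the typical ChIP to input ratio is 0 on the log2 scale, and p-values were adjusted over all peaks. Among the 915 peaks, 13 (1.42%) were above the typical peak, against 1.53% of all peaks tested, and 3 (0.328%) were below, against 0.0497%. The share above was thus near the background. The 13 peaks comprised 6 upstream, 5 inside and 2 past a 3′ end, and the 3 peaks below all lay inside genes.

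The 6 upstream peaks lay near genes of varied function and included the largest fitted value. At Dll4 the input had 2 counts and the ChIP libraries 108 and 111. The raw ratios were 54 (95% counting interval 14.6 to 452) and 55.5 (15.0 to 464), and the fitted log2 value was 3.44 ± 0.65 (SE, edgeR adjusted p = 4.92e-05). Both ChIP libraries were thus far above the input, which is itself too low to fix the ratio closely.

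At Gtf3a, which encodes the transcription factor of 5S ribosomal RNA genes, the peak lay 6386 bp upstream (chr5:146941972-146942271) and had 7 input counts and 149 and 136 ChIP counts. Its fitted log2 value was 2.03 ± 0.43 (SE, edgeR adjusted p = 0.000672). The peak held 11 half-sites, no extended site, and 73.8% of its bases recurred 33 bp further on, so it also holds a recurring unit. At Mir3089 the input had 10 counts and the ChIP libraries 154 and 132, which gave 1.52 ± 0.39 (SE, edgeR adjusted p = 0.0122). Here the input was above the median of 7 and the ChIP counts were the highest of the upstream class in replicate 1.

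The other upstream peaks were at Arid5b, Sf3a3 and Pou2f3. The Arid5b peak (4325 bp; a DNA-binding protein of the AT-rich interaction family) had 2 input counts and 87 and 53 ChIP counts, with raw ratios of 43.5 (11.7 to 365) and 26.5 (6.98 to 225). The Sf3a3 peak (5644 bp; a splicing factor subunit) had 3 input counts and 82 and 64 ChIP counts, with raw ratios of 27.3 (9.03 to 135) and 21.3 (6.98 to 106). The Pou2f3 peak had 5 input counts and 105 and 77 ChIP counts, and it overlapped a GENCODE start. Their fitted log2 values were 2.78 ± 0.74, 2.27 ± 0.66 and 1.86 ± 0.54 (SE, edgeR adjusted p = 0.0178, 0.0421 and 0.0423).

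Inside genes, the peak in Il3ra, the gene of the interleukin-3 receptor alpha chain, had the highest ChIP counts of the whole selection, 195 and 228. It had 9 counts in the input, and a GENCODE start lay 317 bp away. Its fitted log2 value was 2.24 ± 0.36 (SE, edgeR adjusted p = 9.16e-07), the smallest p among the 915. The Zfp827 peak, in intron 1 of a zinc finger gene (chr8:79030935-79031234, 2498 bp), had 3 input counts and 123 and 106 ChIP counts. Its raw ratios were 41 (13.7 to 202) and 35.3 (11.8 to 174), and the fitted value was 2.92 ± 0.58 (SE, edgeR adjusted p = 0.00014).

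Ptch1 encodes the receptor that binds Hedgehog ligands. Its peak (chr13:63567813-63568112) lay 2078 bp upstream of the nearest start but in intron 1 of a longer transcript, and it overlapped a GENCODE start. It had 4 input counts and 88 and 81 ChIP counts, with a fitted log2 value of 2.08 ± 0.59 (SE, edgeR adjusted p = 0.0334). The peak in intron 2 of Rnd3, an atypical small GTPase (chr2:51147450-51147749, 1362 bp), had 6 input counts and 130 and 117 ChIP counts, with 2.04 ± 0.47 (SE, edgeR adjusted p = 0.00255). The peak in intron 1 of Synpo, which encodes the actin-associated protein synaptopodin, lay 3562 bp from the TSS and had 12 input counts and 161 and 145 ChIP counts, with 1.35 ± 0.37 (SE, edgeR adjusted p = 0.0197). In all 5 of these peaks the lower ChIP count was more than 10 times the input.

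The 2 peaks past a 3′ end fell outside the naming rule and were named after their values were seen. The peak 4451 bp from the start of Id3, an inhibitor of basic helix-loop-helix factors, had 5 input counts and 132 and 100 ChIP counts, with a fitted log2 value of 2.21 ± 0.51 (SE, edgeR adjusted p = 0.00221). The peak 5791 bp from the start of Socs3, an inhibitor of cytokine signalling, had 6 input counts and 129 and 87 ChIP counts, with 1.84 ± 0.49 (SE, edgeR adjusted p = 0.0174).

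The 3 peaks below the typical peak had high input counts. The Mllt1 peak (intron 1, 8023 bp; a chromatin reader of transcription elongation complexes) had 18 in the input and 23 and 13 in the ChIP libraries, so 1 ChIP library was under the input. The Klrg2 peak (intron 1, 6429 bp; a lectin-like receptor) had 16 in the input and 21 and 20 in the ChIP libraries. The Asb16 peak (coding exon 3, 7758 bp; a SOCS-box protein) had 19 in the input and 37 and 27 in the ChIP libraries. Their fitted log2 values were −2.31 ± 0.50, −1.95 ± 0.51 and −1.56 ± 0.44 (SE, edgeR adjusted p = 0.00086, 0.0131 and 0.0346).

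These calls depend on the scaling and on the tool, although the fitted values moved little. With DESeq2 size factors in the same edgeR fit, 3 of the 915 peaks stayed above the typical peak, against 0.387% of all peaks, and 0 below. Counted in either direction, 78 had an unadjusted p under 0.05. The 3 that stayed above were the peaks at Dll4, Il3ra and Zfp827. Among those that lost the call, the fitted log2 value was 2.02 at Rnd3, 2.76 at Arid5b and 2.18 at Id3. With the DESeq2 test, the Il3ra peak alone was called (0.218% of all peaks were above), with 21 peaks at an unadjusted p under 0.05 and no adjusted p for 834.

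**Figure D3:**
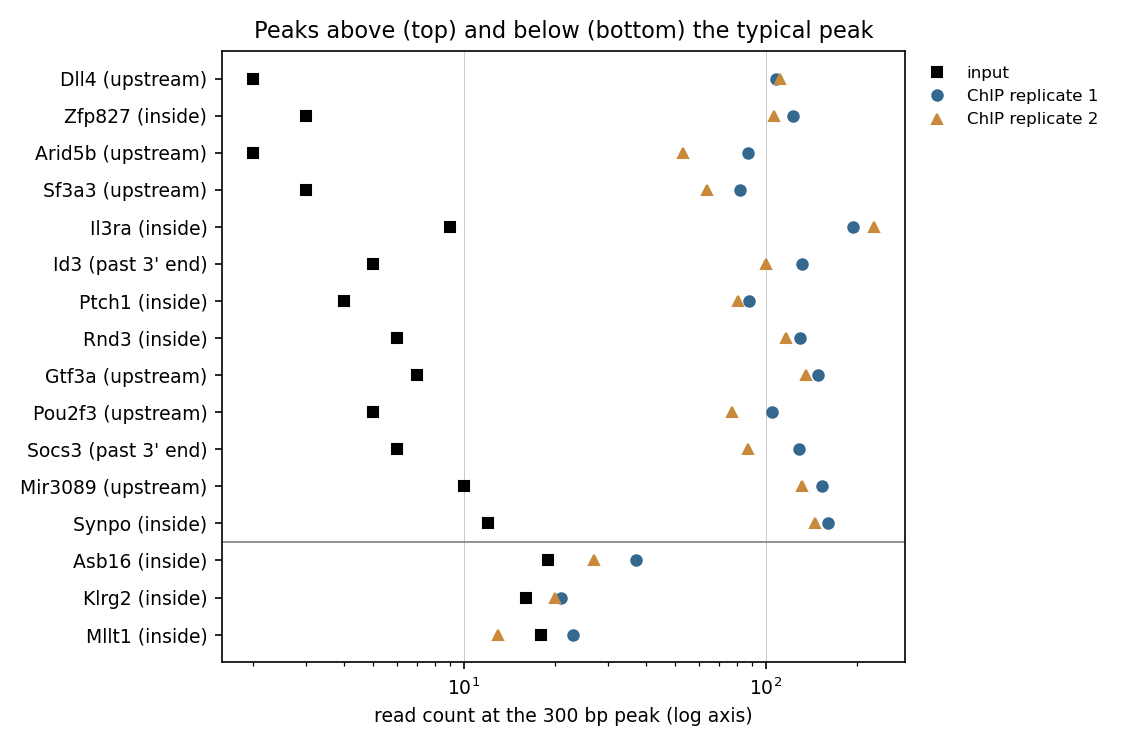
Read counts in the 300 bp window (log axis) in the input (squares) and ChIP replicates 1 (circles) and 2 (triangles), for the 13 peaks above the typical peak and, under the line, the 3 below it. In the upper group the input had 2 to 12 counts and the ChIP libraries 53 to 228, whereas in the lower group the input had 16 to 19 and the ChIP libraries 13 to 37.

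Other peaks with high ChIP counts did not pass the test. Upstream, the peak 4301 bp from Mir143, a microRNA of smooth muscle, overlapped a transcript of another gene, Carmn. It had 14 input counts and 124 and 93 ChIP counts. The peak 2142 bp from Mir99b had 8 input counts and 100 and 115 ChIP counts. The peak 4885 bp from Rhou, an atypical small GTPase, had 9 input counts and 98 and 101 ChIP counts. Their fitted log2 values were 0.63 ± 0.38, 1.43 ± 0.45 and 1.15 ± 0.45 (SE, edgeR adjusted p = 0.62, 0.0742 and 0.235).

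Inside genes, the Aldh3b1 peak had 13 input counts and 123 and 117 ChIP counts, with 0.89 ± 0.38 (SE, edgeR adjusted p = 0.325). The Chd2 peak (intron 2 of a chromatin remodeller, 3621 bp), which overlapped a GENCODE start, had 8 input counts and 110 and 106 ChIP counts, with 1.44 ± 0.45 (SE, edgeR adjusted p = 0.0742). The 5930403L14Rik peak had 16 input counts and 96 and 103 ChIP counts, with 0.32 ± 0.38 (SE, edgeR adjusted p = 0.88). High ChIP counts thus came with input counts from 8 to 16 at these peaks.

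The weakest peaks had few counts in every library. Upstream these were at Ifnab (5207 bp), with 2 input counts and 13 and 14 ChIP counts, and at Rps6ka3 (1462 bp; a ribosomal protein kinase), with 1 input count and 11 and 15 ChIP counts. Inside genes they were at 1700028K03Rik (7049 bp), with 4 input counts and 13 and 14 ChIP counts, and at Myo6 (8544 bp; an unconventional myosin), with 4 and then 18 and 8. A peak inside Ccdc170 (8879 bp), with 5 and then 20 and 7, tied with 1700028K03Rik in summed ChIP count. With so few input counts, their raw ratios were loosely bounded: at Rps6ka3 the replicate 1 ratio of 11 had a 95% counting interval of 1.60 to 473.

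The next question was whether the peaks carried the sequences that NR2F2 is known to bind. A half-site was present in 643 of 915 peaks (70.3%, exact 95% interval 67.2 to 73.2), against 29.2% (27.2 to 31.4) of 1830 windows of 300 bp taken 2 kb to either side. An extended site was present in 144 (15.7%, 13.4 to 18.3), against 2.62% (1.94 to 3.46) of the windows. The extended form contains the half-site, so the counts are nested. Intervals cover the sampling of peaks only, and a match is a run of letters, not a shown binding site.

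Peaks upstream of genes and inside them held these sequences at shares whose intervals overlapped. The half-site was in 68.6% (63.9 to 73.1) of upstream peaks and in 71.5% (66.8 to 75.8) of peaks inside genes. The extended site was in 14.8% (11.5 to 18.7) and 17.6% (14.0 to 21.7). The selection as a whole was close to the peaks beyond 10 kb, of which 74.7% held a half-site and 16.6% an extended site. It was above the peaks within 1 kb of a TSS, at 48.2% and 6.18%. CpG-rich members of the selection resembled the promoter-proximal peaks, with 49.6% and 8.54%, whereas the other members had 77.9% and 18.4%.

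The peaks were richer in G and C than their surroundings (median 56.3%, against 47.0% in the windows), so shares were also compared in a band of 50 to 60% GC. There, 76.5% of peaks and 36.4% of windows held a half-site, and 16.0% and 4.12% held an extended site. Of the 168 extended matches, 97 (57.7%) lay within 50 bp of the peak centre. The match was thus central more often than at the edges, as the plot of positions shows, and the central 100 bp alone held one in 8.31% of peaks and 0.984% of windows.

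**Figure D4:**
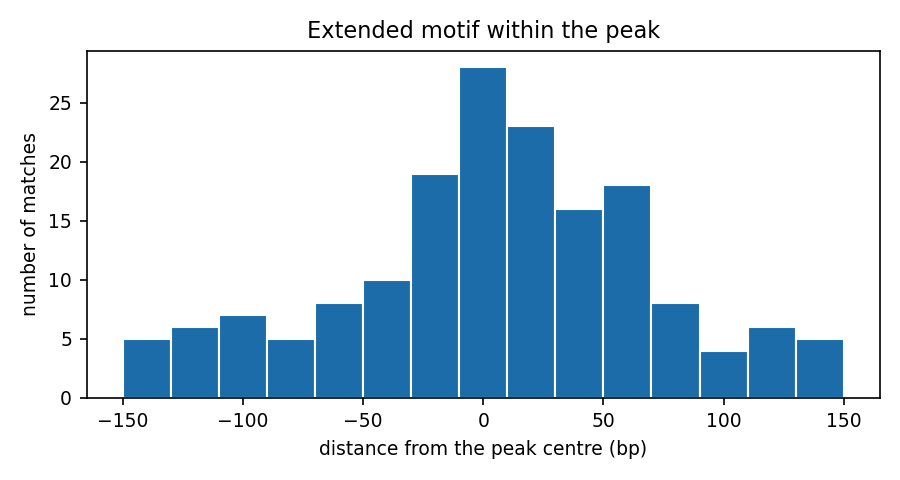
Distance (bp) of each of the 168 matches to the extended site from the centre of its 300 bp peak, in bins of 20 bp, with the number of matches on the vertical axis. Matches were most frequent near the centre, with 97 of 168 within 50 bp.

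Pairs of half-sites were mostly direct repeats. At spacings of 0 to 8 bases, a direct repeat was found in 82 peaks (8.96%, 7.19 to 11), against 0.765% of windows. An inverted repeat was found in 5 peaks and an everted repeat in 8. Among direct repeats, a spacing of 1 base (DR1) was the most frequent with 37 peaks (4.04%), followed by 16 with no base between and 11 with 2 bases. DR1 occurred in 22 of 403 peaks inside genes (5.46%, 3.45 to 8.15) and in 13 of 405 upstream peaks (3.21%, 1.72 to 5.43), with overlapping intervals. In the windows DR1 was found in 2 of 1830 (0.109%).

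Some peaks rich in half-sites had a sequence in which a short unit recurs. The 283 peaks with at least 2 half-sites made up 30.9% of the selection, and the largest number, 19, was in an intron of 5830444B04Rik, where 59.5% of bases recurred 26 bp further on. That peak, named after its sequence was seen, had 4 input counts and 39 and 32 ChIP counts and was not above the typical peak (0.83 ± 0.70, SE, edgeR adjusted p = 0.792). In 13 of the 915 peaks (1.42%) at least 60% of bases recurred at one spacing, among them the Dll4 and Gtf3a peaks.

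The median log2 ratio of the 144 peaks with an extended site was lower than that of the 771 without, by 0.09 in replicate 1 and 0.17 in replicate 2 (difference −0.13 ± 0.056, SD, n = 2). Among peaks above the typical peak the order was the other way, with 4 of the 144 (2.78%) and 9 of the 771 (1.17%), against 1.53% of all peaks. Of these 13 calls, 3 remained with DESeq2 size factors, and neither difference was tested. Peaks with the E-box CAGCTG, a site of basic helix-loop-helix factors such as TCF21, had a higher ratio than those without. The excess was 0.17 in replicate 1 and 0.18 in replicate 2 (0.18 ± 0.0054, SD, n = 2; 356 and 559 peaks). It was not tested, and both replicates share the 1 input.

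The E-box was the most frequent of the other motifs searched. It was in 38.9% (35.7 to 42.2) of the peaks and 14.8% (13.2 to 16.5) of the windows, and in the 50 to 60% GC band in 43.9% and 17.6%. Upstream peaks held it in 37.3% (32.6 to 42.2) and peaks inside genes in 42.9% (38.0 to 47.9). The NR5A1 site CAAGGTCA, which contains the half-site AGGTCA, was in 8.63% (6.89 to 10.6) of peaks and 2.02% of windows. The TEAD site GGAATG was in 22.1% (19.4 to 24.9) of peaks and 14.4% (12.8 to 16.1) of windows. In the GC band the shares were 9.77% and 1.97% for NR5A1. For TEAD they were 21.8% (18.2 to 25.8) and 16.8% (13.8 to 20.2), with overlapping intervals.

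The SP/KLF and ETS sites were more frequent in CpG-rich peaks than in the others. Both sites contain CG, so this is partly set by the definition of CpG-rich. The SP/KLF site GGGCGG was in 50% of CpG-rich peaks and 14.1% of the others, and over the selection in 23.7%, against 57.4% of peaks within 1 kb of a TSS and 12.4% beyond 10 kb. It was in 7.6% of windows. In the GC band it was in 14.8% (11.7 to 18.3) of peaks and 10.6% (8.15 to 13.4) of windows, with overlapping intervals. The ETS site CCGGAAGT was in 11 upstream peaks (2.72%, 1.36 to 4.81) and 2 peaks inside genes (0.496%, 0.0602 to 1.78), and 11 of the 14 peaks that held it were CpG-rich. The CRE site TGACGTCA was in 9 peaks (0.984%) and 0.109% of windows. The GATA site AGATAA was less frequent in peaks (8.52%) than in windows (15.4%), but in the GC band the shares were 8.11% and 9.86%. Over the selection, AP-1 (TGANTCA, 6.23% and 8.25%), TALE homeodomain (TGACAG, 18.4% and 20.1%) and NF-Y sites (CCAAT, 23.5% and 32.3%) were no more frequent in peaks than in windows, nor were they in the GC band. AP-1 was in 7.65% of upstream peaks and 7.16% of their windows. The homeobox site TAATTA was in 3.61% of peaks and 6.07% of windows, but in the GC band the order was the other way, at 3.95% (2.39 to 6.10) and 2.33% (1.25 to 3.95).

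**Figure D5:**
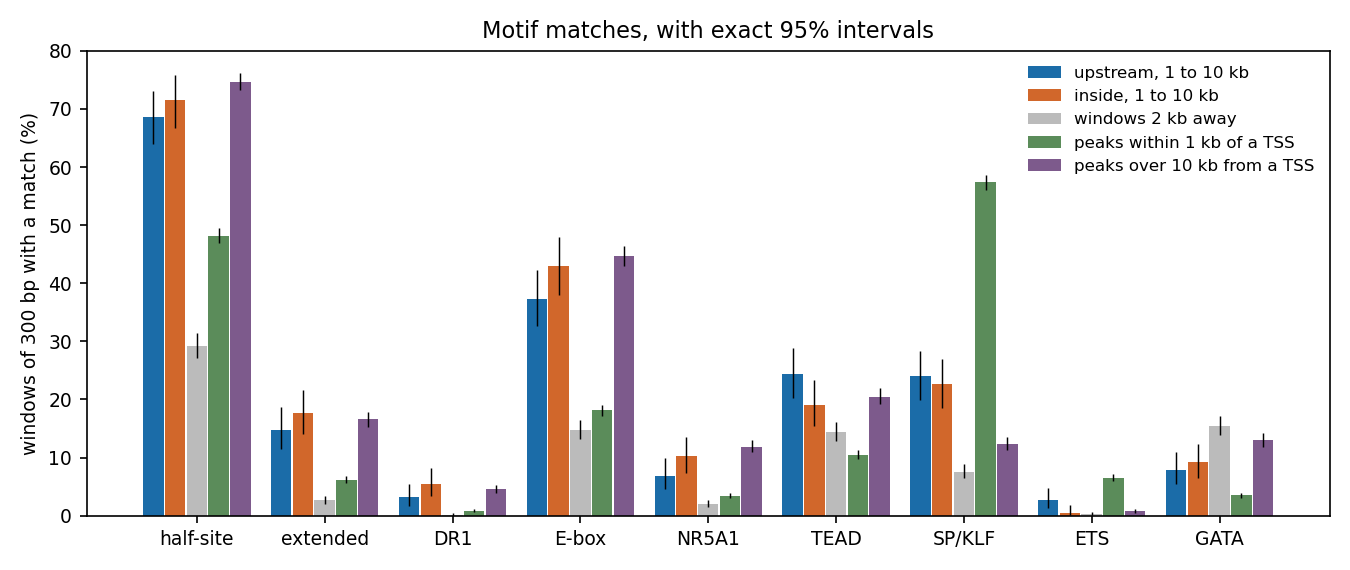
Share (%) of 300 bp windows that held each motif on either strand, for peaks 1 to 10 kb upstream of or inside the nearest gene, windows 2 kb from these peaks, and peaks within 1 kb of or over 10 kb from a TSS; lines are exact 95% binomial intervals. Half-site, extended, DR1, E-box and NR5A1 bars of upstream and inside peaks stand above the grey bars of the windows.

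A further question was whether these peaks accompanied a promoter peak of the same gene. The nearest gene also had a peak within 1 kb of one of its starts for 83 of 405 upstream peaks (20.5%, 16.7 to 24.8) and 95 of 403 peaks inside genes (23.6%, 19.5 to 28.0). Of all 26180 annotated genes, 24.8% had such a promoter peak, so the shares were near that of all genes. For protein-coding nearest genes the shares were 25.1% upstream and 25.4% inside. Past a 3′ end it was 9.35% (4.57 to 16.5), and for peaks beyond 10 kb it was 30.0%. Another peak centre lay within 10 kb of 246 of the 915 peaks (26.9%) and within 1 kb of 18.

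Genes of interest to the fetal testis were then looked up in 6 lists, compiled with earlier results of these data known. Of 159 listed genes, 18 (11.3%) were the nearest gene of a selected peak, against 3.36% of all annotated genes. Since the lists were chosen knowing results, this share is a description. Of the 19 peaks, 1 (5.26%) was above the typical peak, against 1.53% of all peaks, and 0 were below, against 0.0497%. The call, at Ptch1, was lost with DESeq2 size factors, with the DESeq2 test and without a composition factor. The fitted log2 value was above 0 at 17 of the 19 peaks, whereas it was above 0 at 49.0% of the selection. Because the lists were chosen knowing results, this contrast is also a description, and it was not tested.

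Among 24 genes of interstitial cells, 5 had a peak, 3 upstream and 2 inside, with a median fitted log2 value of 0.24. The peak 1108 bp upstream of Nr2f2 itself (chr7:70367854-70368153) had 9 input counts and 45 and 55 ChIP counts. Its paralog Nr2f1 had a peak 4757 bp upstream, with an extended site, 4 input counts and 40 and 37 ChIP counts. A peak in coding exon 2 of Tcf21, a basic helix-loop-helix factor of mesenchyme, had 11 input counts and 63 and 53 ChIP counts. The TALE homeobox genes Pknox2 and Meis1 had peaks with 6 and 8 input counts, 42 and 45 counts in ChIP replicate 1 and 40 and 49 in replicate 2. Fitted log2 values ran from 0.08 at Tcf21 to 0.94 at Nr2f1, and none of the 5 passed the edgeR test.

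Among 22 genes of fetal Leydig cells and cholesterol metabolism, 1, Nr5a1, was the nearest gene of a peak at 1 to 10 kb, a share near the 3.36% of all annotated genes. Its upstream peak, whose sequence is given above, had 11 input counts and 75 and 66 ChIP counts, with a fitted log2 value of 0.36 ± 0.46 (SE, edgeR adjusted p = 0.897). Its ChIP counts exceeded the medians of the selection, and so did its input count.

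Among 26 matrix and contractile genes, 3 had a peak. The peak 7080 bp upstream of Col1a1, a chain of type I collagen, had 12 input counts and 82 and 70 ChIP counts. The peak 9724 bp upstream of Timp2, an inhibitor of matrix metalloproteinases, had 3 input counts and 60 and 48 ChIP counts, with raw ratios of 20 (6.52 to 99.7) and 16 (5.16 to 80.3). The peak in intron 1 of the protease gene Adamts1 overlapped a GENCODE start and had 9 input counts and 62 and 65 ChIP counts. Fitted log2 values ran from 0.34 to 1.84, and none of the 3 passed the edgeR test.

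Among 36 signalling genes, 6 had a peak and Heyl had 2. Beside Ptch1, these were Notch effectors and growth factor receptors. Heyl, a transcriptional repressor downstream of Notch, had an upstream peak with 16 input counts and 103 and 66 ChIP counts. It also had a peak in intron 1, 52 bp from a GENCODE start, with 7 and then 87 and 66. Its relative Hey1 had a peak in coding exon 5 with 10 input counts and 75 and 36 ChIP counts, a gap between the replicates of over 2-fold before scaling. Upstream peaks of the receptor genes Igf1r, Fgfr1 and Tgfbr1 had 8, 6 and 8 input counts, with 62, 38 and 21 counts in ChIP replicate 1 and 53, 23 and 18 in replicate 2. The Tgfbr1 peak had the lowest fitted log2 value of the list, −1.03 ± 0.64 (SE, edgeR adjusted p = 0.638).

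Among 30 other nuclear receptor genes, 3 had a peak, all inside the gene. Rara, a receptor of retinoic acid, had 6 input counts and 51 and 56 ChIP counts at its peak in intron 2. The orphan receptor genes Nr4a2 and Nr4a3 had 7 and 10 input counts, 37 and 34 counts in ChIP replicate 1 and 42 and 24 in replicate 2. None of 21 listed marker genes of Sertoli, germ, endothelial or immune cells was the nearest gene of a selected peak, against 3.36% of all annotated genes. The labelled tissue itself cannot be checked from counts at peaks.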

How the data were processed

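NR2F2 ChIP-seq of whole E14.5 testes gave 3 libraries, grouped by their labels into 2 ChIP replicates and 1 input without a number. For each library the authors deposited unnormalised read counts at every peak. Per the submitters' processing notes and the study's methods, reads were trimmed (Trim Galore 0.6.7), mapped to mm10 (Bowtie2), cleared of duplicates (Picard 1.110), and peaks were called with HOMER 4.11.1 on merged ChIP replicates and resized to 300 bp. The sources used here give neither how reads were assigned to peaks nor whether the input was pooled. Duplicate removal caps counts in short intervals. Counts cover peaks only, so totals at peaks are not depths, and with a median input of 7 the input limits every ratio.

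Peaks were placed on 45756 curated RefSeq transcripts (GRCm38, coordinates 1-based). A peak was inside when its midpoint lay in a transcript of the nearest gene, upstream when on the upstream side and outside these transcripts, and past the 3′ end otherwise. The 5 peaks on unplaced contigs were left out of positions. All 10069 peaks were fitted with the edgeR 4.0.16 quasi-likelihood test (limma 3.58.1, R 4.3.3), ChIP against input, TMM factors (1.055, 0.9749 and 0.9726), with Benjamini-Hochberg adjusted p under 0.05. The single input is assumed to vary like the ChIP libraries. Replicates are separate libraries of pooled testes. The p-values rest on the spread between them and on the counts of the 1 input, whose own spread between samples was not measured. Ratio differences are means of 2 replicates over a shared input, and shares have exact (Clopper-Pearson) intervals. Intervals of raw ratios are exact and cover counting error only. Direct, inverted and everted repeats were searched at spacings up to 8. Other steps used Python 3.11.15, numpy 2.4.6, pandas 2.3.3 and scipy 1.17.1. The fit was tested on simulated data with 100 peaks raised and 100 lowered 4-fold. It recovered 75 of the raised and 28 of the lowered peaks, with 5 false calls.

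The members and gene lists were chosen with earlier results of these data known. Named peaks were up to 8 called above per class (upstream, inside) and every one called below, the 6 highest and 2 lowest by ChIP count per class, the 2 highest per gene list, with the other listed peaks given besides, the 2 on each side of each distance limit, and the sequences of the 3 strongest with an extended site per class and of the Nr5a1 peak, none from chromosome 18. The sequence of 1 of these peaks is not reported here. Alternatives were DESeq2 1.42.0 size factors and test, no composition factor, a robust fit, at least 10 input counts, no X or Y, and other definitions of ratio, class, motif and transcript set. The GENCODE and GC band alternatives were chosen after seeing the data.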

Additional observations from a re-analysis of the deposited data

How the results depend on the processing

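The 13 peaks above the typical peak became 3 with DESeq2 size factors, 1 with the DESeq2 test and 2 among the 259 with at least 10 input counts. Over all peaks fitted, the 154 above became 39, 22 and 58 in these settings. The 3 selected peaks below became 0 with DESeq2 size factors and 0 with the DESeq2 test. Counted in either direction, 78 and 21 of the 915 had an unadjusted p under 0.05 in these 2 settings. Without a composition factor the counts above and below were 9 and 4, against 102 and 7 over all peaks. A robust fit gave 13 and 3, against 154 and 5, and leaving out X and Y gave 13 and 4, against 150 and 7. Over 1 kb from every GENCODE start they were 10 and 3, without the Il3ra, Pou2f3 and Ptch1 peaks. Of the 16 called peaks, 13 lost their call with DESeq2 size factors, 15 with the DESeq2 test, 4 without a composition factor, and 1 of the 5 with at least 10 input counts (Asb16, whose log2 value moved from −1.56 to −1.24). The cause was not tested. None of these 16 peaks changed direction under the alternatives that fitted it, and the other named peaks were not run under them.

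The upstream excess over inside in log2 ratio was 0.05 with at least 5 input counts, 0.07 from summed counts, 0.04 for upstream peaks outside every gene, 0.05 at 1 to 5 kb (with inside higher in replicate 2, 2.14 against 2.13), 0.05 at 5 to 10 kb and 0.05 as a mean within classes of GC content, and ranged from 0.01 to 0.03 when 1 ChIP replicate was left out. The motif share of 15.7% was by construction lower in the central 100 bp, at 8.31%, and higher for the half-site, at 70.3%. For DR1, which need not hold an extended site, it was 4.04%. The share of peaks whose gene also had a promoter peak, 20.5%, was 6.56% for peaks overlapping the TSS and 24.8% with NM_ transcripts. The selection itself numbered 976 by peak midpoint, 826 with NM_ transcripts and 718 without GENCODE starts. No paired analysis was possible because the input carries no replicate number, so the groups share none. Depth limits the input: 79 of the 915 peaks had at most 3 input counts.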
